A study of Mus musculus with 16 samples.

Results

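The comparison set Nrf2-/- mIMCD3 cells treated with SFN against WT mIMCD3 cells treated with DMSO, both without hyperosmotic stress. Its members were 4 libraries of the 16 in the series, 2 for each condition, and every gene that passed a filter on expression, which was 19509 of the 55367 gene symbols in each file. mIMCD3 is a mouse epithelial line derived from the collecting duct of the inner medulla, the last part of the renal tubule, although the labels name primary tubular cells in their account of RNA extraction. Cells received the solvent DMSO or 10 μM SFN (sulforaphane, an isothiocyanate) for 5 h before RNA was taken. The Nrf2-/- line had been made by lentiviral Cas9 and guide RNA with selection on blasticidin and puromycin, and whether it was 1 clone or a pool is not given in the sources used here. WT cells are not described as having passed through the same selection. The groups compared therefore differed in genotype, in the history of the line and in SFN at once, and Nrf2-/- cells given DMSO are not among the 16 libraries. For that reason the effect of SFN and the identity of the line cannot be told apart in this comparison alone, and 3 other sets of libraries are given beside it. These are WT cells with SFN in isosmotic medium, which share the DMSO controls, Nrf2-/- cells with SFN and WT cells with DMSO after 1 h in hyperosmotic medium, and WT cells with DMSO or SFN after 1 h and 6 h in hyperosmotic medium.

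Nrf2, encoded by Nfe2l2, is a transcription factor that is held at low level by Keap1, an adaptor that marks it for degradation. Electrophiles such as SFN modify cysteines of Keap1, and Nrf2 then accumulates and binds antioxidant response elements in genes for glutathione synthesis, thioredoxin, NADPH supply, iron storage and detoxification. SFN also reacts with thiols of other proteins, and electrophiles are known to activate the heat shock response through HSF1 and the integrated stress response through ATF4, which serve protein folding and amino acid supply.

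Promoters of 4 genes are shown because they belonged to the gene groups that moved in different directions between these cells. Srxn1 (sulfiredoxin, which repairs oxidized peroxiredoxins) was raised by SFN in WT cells and was far lower in Nrf2-/- cells. Slc7a11 (the cystine transporter), Trib3 (a pseudokinase induced by ATF4) and Hsph1 (a large heat shock protein that acts as a nucleotide exchange factor) were raised by SFN in WT cells and were also higher in Nrf2-/- cells. Each window of 300 bases runs from 250 bases before to 50 after a RefSeq gene start, on GRCm38.p6, 5′ to 3′ on the gene's strand. The windows lie at chr2:152105274-152105573 (plus strand) for Srxn1, chr3:50443564-50443863 (minus) for Slc7a11, chr2:152344011-152344310 (minus) for Trib3 and chr5:149636287-149636586 (minus, 1 of its 2 windows) for Hsph1. Capitals mark the core of an antioxidant response element (TGACNNNGC) in Srxn1, an ATF4 composite element (TGATGNAA) in Slc7a11 and Trib3, and heat shock elements (GAANNTTC or TTCNNGAA, of which the last pair in Hsph1 overlap) in Hsph1, on either strand.
Srxn1: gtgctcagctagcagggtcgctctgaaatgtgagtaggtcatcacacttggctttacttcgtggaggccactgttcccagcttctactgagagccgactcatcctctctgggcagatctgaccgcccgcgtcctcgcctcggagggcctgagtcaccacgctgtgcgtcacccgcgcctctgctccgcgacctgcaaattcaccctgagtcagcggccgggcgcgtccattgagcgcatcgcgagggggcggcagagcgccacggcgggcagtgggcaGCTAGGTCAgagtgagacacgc
Slc7a11: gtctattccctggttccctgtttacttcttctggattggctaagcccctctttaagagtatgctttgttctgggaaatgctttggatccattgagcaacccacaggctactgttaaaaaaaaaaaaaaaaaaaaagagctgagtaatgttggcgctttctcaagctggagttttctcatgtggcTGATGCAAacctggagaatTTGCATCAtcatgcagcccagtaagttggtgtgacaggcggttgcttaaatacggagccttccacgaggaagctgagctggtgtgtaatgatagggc
Trib3: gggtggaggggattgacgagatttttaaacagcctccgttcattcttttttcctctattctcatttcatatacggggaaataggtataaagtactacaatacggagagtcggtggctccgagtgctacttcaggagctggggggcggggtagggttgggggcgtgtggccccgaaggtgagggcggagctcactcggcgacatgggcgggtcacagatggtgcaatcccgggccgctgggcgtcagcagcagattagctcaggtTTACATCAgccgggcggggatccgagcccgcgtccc
Hsph1: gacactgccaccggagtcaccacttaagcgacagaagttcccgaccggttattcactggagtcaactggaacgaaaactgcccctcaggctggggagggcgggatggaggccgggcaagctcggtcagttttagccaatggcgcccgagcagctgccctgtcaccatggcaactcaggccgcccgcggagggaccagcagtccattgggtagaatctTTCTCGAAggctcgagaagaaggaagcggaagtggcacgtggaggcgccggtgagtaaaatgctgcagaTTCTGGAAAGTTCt
The match in Srxn1 began 29 bases after the gene start. In Slc7a11 there were 2 matches, which began 66 and 47 bases before the start, and no match to the antioxidant response element core lay in that window. In Trib3 the match began 15 bases after the start, and in Hsph1 the 3 matches began 33 bases before and 37 and 42 bases after it. The Hsph1 window also held 2 matches to the antioxidant response element core. Of 32851 promoter windows searched, 12.4% held the antioxidant response element core, 15.1% a heat shock element and 4% the ATF4 composite element. A heat shock element was found for 12 of the 17 heat shock genes with a window, an ATF4 composite element for 7 of 26 ATF4 targets and the antioxidant response element core for 9 of 24 Nrf2 targets. That core was also found for 10 of the 26 ATF4 targets and 2 of the 17 heat shock genes. By gene, counting any of its windows, the shares over 27025 genes were 17%, 4.5% and 14% in the same order. These matches describe letters in a window and do not show binding. Sequence outside the windows was not searched, so a window without a match does not show that a gene lacks the element.

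The targeted gene was checked first. Nfe2l2 (chromosome 2, 75675513 to 75704641 in GENCODE M21 on GRCm38) stood at 77.9 and 74.7 CPM (counts divided by the library total after TMM scaling) in the WT DMSO libraries, at 66.9 and 78.0 with SFN in WT cells and at 11.1 and 11.6 in the Nrf2-/- SFN libraries. The Nrf2-/- values lay far below every WT value, although the transcript was still counted, and the log2 difference from WT DMSO was -2.74 ± 0.10 (SE, n = 2 against 2, edgeR quasi-likelihood adjusted p = 9.65e-11). After 1 h in hyperosmotic medium the same difference was -2.59 ± 0.10. Keap1 read 45.5 and 51.0 CPM in WT DMSO and 47.6 and 42.9 in Nrf2-/- SFN libraries, and the groups overlapped (adjusted p = 0.495). Among partners and repressors of Nrf2, Bach1, a repressor that competes for the same elements, was 42.7 and 37.3 CPM in WT DMSO and 59.8 and 62.5 in Nrf2-/- SFN libraries and rose by 0.61 ± 0.16 log2. That call was lost without WT DMSO replicate 2, where the difference was 0.51. The small Maf genes Mafk (-1.10 ± 0.12) and Maff (-1.45 ± 0.27), whose products pair with Nrf2, fell. With SFN in WT cells Mafk also fell (-0.45 ± 0.11), and Maff differed by -0.81 ± 0.27 without passing the test. Neither passed in Nrf2-/- SFN against WT DMSO cells at 1 h (-0.22 ± 0.11 and -0.73 ± 0.27).

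Across all genes, 7563 of 19509 passed the test at an adjusted p under 0.05 (38.8%), of which 3514 were higher (18%) and 4049 lower (20.8%) in Nrf2-/- SFN cells. At least a 2-fold difference was reached by 1513 and 1913 of them. Between WT SFN and WT DMSO in isosmotic medium 555 genes passed (2.84%), 212 higher and 343 lower, and the median absolute log2 difference over all genes was 0.255 there and 0.586 in Nrf2-/- SFN against WT DMSO. On the first 2 principal components the Nrf2-/- isosmotic libraries lay at 128.6 and 128.4 and at -48.21 and -49.07, whereas the 4 isosmotic WT libraries lay between 26.67 and 31.09 and between 79 and 87.38. Total counts were 40319167 and 43991410 in WT DMSO and 34484296 and 35833924 in Nrf2-/- SFN libraries, and the biological coefficient of variation was 0.111 and 0.0871. The Nrf2-/- SFN libraries at 1 h varied most (0.348), and the other groups lay between 0.0393 and 0.128. The paper describes the RNA-seq samples as 2 biological replicates, and the labels do not say how they were cultured. The p-values rest on a spread per gene estimated over all 16 libraries, including the Nrf2-/- SFN libraries at 1 h. A fit without those 2 libraries called 4482 genes higher and 5072 lower. This spread is between replicate samples of a cell line, and how far apart their cultures were is not known.

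Much of the difference was present again in other libraries of the same line. Of the 3514 genes higher in Nrf2-/- SFN cells, 2369 (67.4%) were also higher than WT DMSO after 1 h in hyperosmotic medium, where 6132 genes passed (31.4%) and 3032 were higher (15.5% of those tested), so that they made up 78.1% of that list. Of the 4049 lower genes, 2523 (62.3%) were lower again, 81.4% of the 3100 genes lower at 1 h (15.9%). Opposite calls were found for 12 and 21 genes. No library is shared between the 2 comparisons, but both came from the same fit, all Nrf2-/- cells came from the same line and all received SFN.

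Nrf2 targets were mostly lower. Of the 30 listed target genes, all tested, 22 were lower in Nrf2-/- SFN than in WT DMSO cells, 2 were higher and 6 did not pass, against 20.8% lower and 18% higher over all genes, and the median log2 difference was -0.75 where that of all tested genes was 0. With SFN in WT cells, 13 of the 30 were higher and 0 lower by edgeR (22 and 1 at an unadjusted p under 0.05), beside 1.09% and 1.76% of all genes, with a median of 0.41. Between the 2 SFN-treated lines 23 were lower and 1 was higher in Nrf2-/- cells, beside 18.4% and 15.7% of all genes. The summed level of the list was 5774 and 6263 CPM in WT DMSO, 8320.0 and 8319 in WT SFN and 3845 and 3958 in Nrf2-/- SFN libraries. These 3 comparisons share libraries, so that their counts are not independent of each other. Of 9 regulators and partners of Nrf2, 2 were higher and 4 lower in Nrf2-/- SFN than in WT DMSO cells, and the share higher was near that of all genes.

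Srxn1 was 81.6 and 82.6 CPM in WT DMSO, 212 and 199.8 in WT SFN and 22.0 and 21.3 in Nrf2-/- SFN libraries. Its level thus rose with SFN in WT cells (log2 1.33 ± 0.09, adjusted p = 1.26e-06) and fell by 1.92 ± 0.09 log2 in Nrf2-/- SFN against WT DMSO cells (adjusted p = 8.78e-10). Txnrd1, thioredoxin reductase, went from 792 and 778 CPM in WT DMSO and 1218 and 1233 in WT SFN to 346 and 352 in Nrf2-/- SFN libraries. The groups did not overlap, and the log2 difference from WT DMSO was -1.17 ± 0.12. Slc48a1, which exports haem from the lysosome, was 122 and 124 CPM in WT DMSO, 266 and 244 in WT SFN and 34.5 and 34.8 in Nrf2-/- SFN libraries, with a log2 difference of -1.82 ± 0.10 from WT DMSO. Nqo1, a quinone reductase and classical Nrf2 target, was weakly expressed in this line, at 2.55 and 2.85 CPM in WT DMSO and 7.19 and 7.38 in WT SFN libraries, and had 0 counts in both Nrf2-/- SFN libraries, at least 32.6-fold lower than in WT DMSO when the floor is set at 3 counts per library. Low but non-zero values of 0.255 and 0.115 CPM were found for Nqo1 in the Nrf2-/- libraries at 1 h.

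Glutathione S-transferases, which conjugate electrophiles such as SFN with glutathione, showed larger losses. Of 20 tested, 13 were lower and 1 was higher, beside 20.8% and 18% of all genes, with a median log2 difference of -1.60. Gstm1 was 79.0 and 84.8 CPM in WT DMSO, 90 and 97.2 in WT SFN and 0.654 and 1.29 in Nrf2-/- SFN libraries, with a log2 difference of -6.38 ± 0.21 from WT DMSO. Gsta4 was 36.3 and 42.2 CPM in WT DMSO, 77.4 and 64.2 in WT SFN and 0.597 and 1.07 in Nrf2-/- SFN libraries, with a log2 difference of -5.54 ± 0.21 from WT DMSO. Both were near 0 in every Nrf2-/- library, with 1.30 and 0.836 CPM for Gstm1 and 0.651 and 0.461 for Gsta4 at 1 h. Gsta1 (12.3 and 12.1 CPM in WT DMSO, 24.0 and 27.5 in WT SFN) and Gsta2 (2.33 and 1.97 CPM in WT DMSO, 3.14 and 2.89 in WT SFN) had 0 counts in both Nrf2-/- SFN libraries and in both at 1 h, at least 147-fold and 25.9-fold lower than in WT DMSO. Members of this family are close copies of each other and can share reads, so single values are uncertain where the counting could split them.

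The question of which SFN responses were present without Nrf2 was read from genes that SFN changed in other libraries. SFN against DMSO in WT cells called 18 genes at 1 h and 8 at 6 h in hyperosmotic medium, all higher (0.0923% and 0.041% of genes), and together these made a list of 19 genes. No gene was called lower by edgeR at either time, where 669 and 718 genes had an unadjusted p under 0.05 in any direction. In Nrf2-/- SFN against WT DMSO cells, 5 of the 19 were higher and 14 lower, beside 18% and 20.8% of all genes. The list and these calls came from the same fit with a shared spread per gene, so they are not independent. The 5 were Slc7a11, Hsph1, Dgcr8, Ampd3 and Lrp8.

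Slc7a11 showed the largest rise. Its level was 8.67 and 6.37 CPM in WT DMSO, 37.3 and 41.5 in WT SFN and 73.4 and 67.8 in Nrf2-/- SFN libraries. All Nrf2-/- values lay above all WT values, with a log2 difference of 3.23 ± 0.27 from WT DMSO (adjusted p = 4.98e-07) and 0.84 ± 0.25 from WT SFN (adjusted p = 0.0162). At 1 h it was 5.57 and 6.54 CPM in WT DMSO and 49.3 and 103 in Nrf2-/- SFN libraries. Hsph1 read 365 and 356 CPM in WT DMSO, 591 and 630.1 in WT SFN and 829 and 835 in Nrf2-/- SFN libraries, and rose by 1.21 ± 0.09 log2 from WT DMSO (adjusted p = 7.15e-08). Dgcr8, which with Drosha cuts primary microRNAs, was 61.9 and 52.8 CPM in WT DMSO and 83.3 and 84.6 in Nrf2-/- SFN libraries (0.55 ± 0.14 log2). For Ampd3, an AMP deaminase, the values were 20.5 and 18.1 CPM in WT DMSO, 31.5 and 35.6 in WT SFN and 24.5 and 25 in Nrf2-/- SFN libraries. It rose by 0.36 ± 0.10 log2 from WT DMSO and differed from WT SFN by -0.44 ± 0.10 log2. Lrp8, a receptor for reelin and selenoprotein P, followed the same order, at 55.6 and 48.7 CPM in WT DMSO, 93.7 and 97.1 in WT SFN and 63.7 and 66.4 in Nrf2-/- SFN libraries. Only Slc7a11 and Hsph1 passed a 2-fold limit. Dgcr8, Ampd3 and Lrp8 lost their call without WT DMSO replicate 2, and the last 2 also without either Nrf2-/- replicate or with no filter on low counts.

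Among the 14 lower genes, Adh7, an alcohol dehydrogenase, was 51.1 and 50.1 CPM in WT DMSO, 95.1 and 106 in WT SFN and 16.7 and 17.4 in Nrf2-/- SFN libraries, with a log2 difference of -1.57 ± 0.10 from WT DMSO. Esd, S-formylglutathione hydrolase, was 262 and 300.3 CPM in WT DMSO, 430.2 and 429 in WT SFN and 107 and 122 in Nrf2-/- SFN libraries, with a log2 difference of -1.30 ± 0.11 from WT DMSO. The other falls, named after their values were seen, ran from -0.33 log2 for G6pdx, the first enzyme of the pentose phosphate pathway, to -0.84 for Hmox1, haem oxygenase 1. Hmox1 illustrated the pattern, at 71.3 and 84.2 CPM in WT DMSO, 327 and 308 in WT SFN and 37.6 and 49.5 in Nrf2-/- SFN libraries. The genes of glutathione synthesis moved less, with Gclm at -0.40 and Gclc at -0.50 log2 from WT DMSO and -1.61 and -1.74 log2 from WT SFN.

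**Figure D1:**
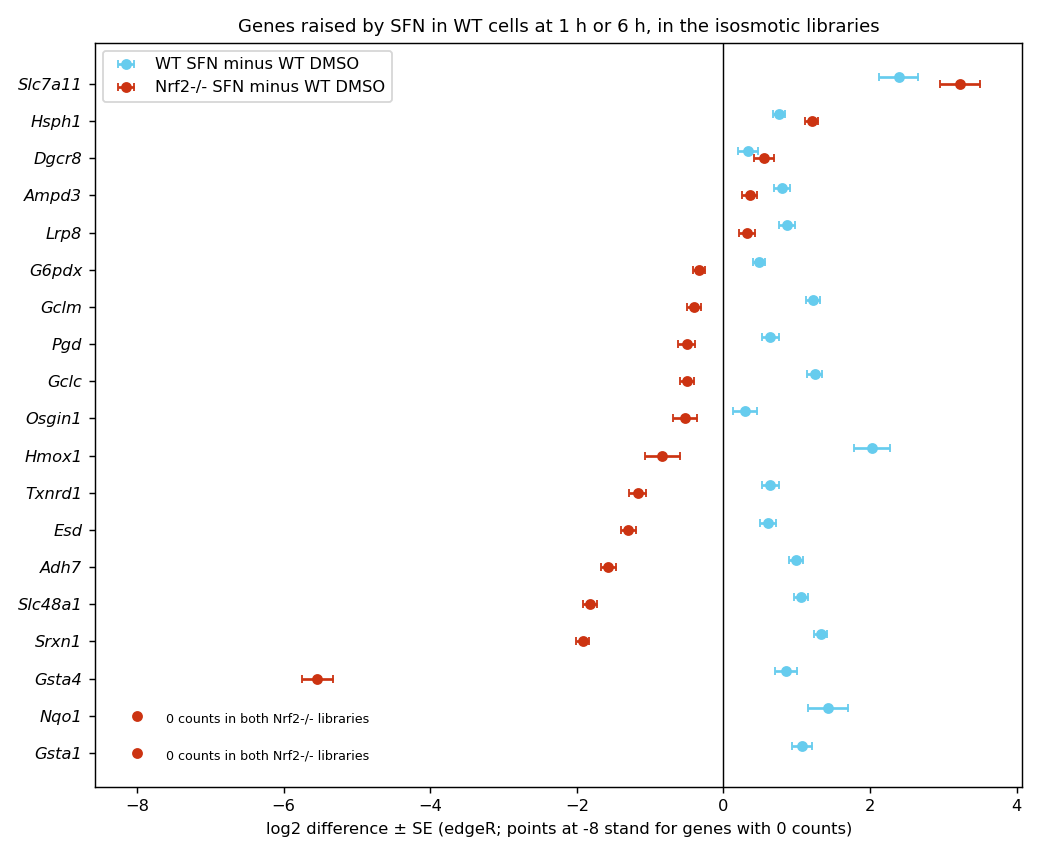
The 19 genes that SFN raised in WT cells after 1 h or 6 h in hyperosmotic medium (vertical axis), with their log2 difference from WT DMSO in isosmotic medium (horizontal axis, bars show the SE from edgeR, n = 2 against 2) for WT SFN (light blue) and Nrf2-/- SFN cells (red). All 19 light blue points lie above 0, while 5 red points lie above it and 14 below, and Nqo1 and Gsta1, drawn at -8, had 0 counts in both Nrf2-/- SFN libraries.

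A wider list, chosen after the data were seen, came from a fit of only the 8 WT libraries at 1 h and 6 h. None of these is among the 4 libraries compared. They do enter the fit to 16 libraries, and so its filter and its spread per gene. The wider list held 281 genes raised and 150 lowered by SFN. Of the raised genes, 92 (32.7%) were higher and 98 (34.9%) lower in Nrf2-/- SFN than in WT DMSO cells, and the median was 0.06 log2. Of the lowered genes, 73 (48.7%) were lower and 25 (16.7%) higher, with a median of -0.40 log2. All genes tested were higher in 18% and lower in 20.8% of cases. Both shares of the raised genes lay above these, as did the share of lowered genes that were lower. The share of lowered genes that were higher lay slightly below. Calls were more frequent among the 11961 genes with a mean of at least 50 counts and 1 position, at 3026 higher and 3290 lower. Neither these lists nor any other gene list given here was compared with those genes alone.

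Of 22 heat shock genes tested, 11 rose, 3 fell and 8 did not pass, beside 18% higher and 20.8% lower over all genes, with a median of 0.29 log2. Under RLE scaling 13 rose, and under DESeq2 14. With SFN in WT cells 8 rose and 0 fell by edgeR (10 and 0 at an unadjusted p under 0.05), beside 1.09% and 1.76% of all genes. Hspa1b, the stress-inducible Hsp70, was 81.9 and 81.7 CPM in WT DMSO, 239 and 243 in WT SFN and 249 and 275 in Nrf2-/- SFN libraries. Its rise of 1.68 ± 0.14 log2 from WT DMSO left it close to the WT SFN level (0.12 ± 0.14 log2, adjusted p = 0.561). At 1 h in hyperosmotic medium it was 332 and 336 CPM in WT DMSO and 380.4 and 255 in Nrf2-/- SFN libraries, and the groups overlapped (-0.07 ± 0.14 log2, adjusted p = 0.741). Its near-identical neighbour Hspa1a was counted at 4.10 and 4.49 CPM in WT DMSO and 0.626 and 0.913 in Nrf2-/- SFN libraries, with a log2 difference of -2.47 ± 0.23 from WT DMSO, and reads of this pair cannot be told apart with certainty. Chordc1, an Hsp90 co-chaperone, rose from 70.5 and 68.4 to 129 and 129 CPM (0.89 ± 0.10 log2), with 92.3 and 99.0 CPM in WT SFN libraries. A few further members, named after their values were seen, were Hspa4l (1.03 ± 0.15 log2), Hsp90aa1 (1.05 ± 0.17) and Hspb8 (1.26 ± 0.16), all higher in Nrf2-/- SFN cells.

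Amino acid and integrated stress genes controlled by ATF4 were mostly higher. Of 28 tested, 19 were higher, 1 was lower and 8 did not pass, beside 18% and 20.8% of all genes, with a median of 1.08 log2. SFN in WT cells gave 6 higher and 3 lower, beside 1.09% and 1.76% of all genes. Trib3 was 16.2 and 17.8 CPM in WT DMSO, 28.9 and 28.4 in WT SFN and 68.6 and 68.3 in Nrf2-/- SFN libraries, without overlap, and rose by 2.01 ± 0.16 log2 (adjusted p = 1.74e-07). Slc6a9, a glycine transporter, followed the same order at 5.55 and 6.23 CPM in WT DMSO, 10.5 and 10.3 in WT SFN and 26.4 and 23.3 in Nrf2-/- SFN libraries (2.08 ± 0.17 log2). Aldh18a1, which starts proline synthesis, was 185 and 187 CPM in WT DMSO, 239 and 241 in WT SFN and 446 and 409.5 in Nrf2-/- SFN libraries (1.20 ± 0.09 log2). Asns, asparagine synthetase, differed from these in that SFN in WT cells gave only 0.18 ± 0.14 log2 (adjusted p = 0.547), while Nrf2-/- SFN cells stood at 429 and 406 CPM against 115 and 129 in WT DMSO, a rise of 1.78 ± 0.14.

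Other members of this list, named after their values were seen, showed both patterns. Chac1, which degrades glutathione, was 6.22 and 7.12 CPM in WT DMSO, 28.3 and 24.3 in WT SFN and 30.1 and 33.1 in Nrf2-/- SFN libraries, so that its level in Nrf2-/- SFN cells differed from WT SFN by 0.27 ± 0.19 log2 (adjusted p = 0.308). Sesn2, a stress-induced inhibitor of mTORC1, was 11.6 and 12.2 CPM in WT DMSO, 24.8 and 25.7 in WT SFN and 35.3 and 35.8 in Nrf2-/- SFN libraries. Cth, which makes cysteine from cystathionine, was 8.43 and 12.8 CPM in WT DMSO, 9.49 and 10.1 in WT SFN and 55.5 and 60.7 in Nrf2-/- SFN libraries, high in the Nrf2-/- line alone among these 6 libraries. The transcript of Atf4 itself was 296 and 348 CPM in WT DMSO and 383 and 407 in Nrf2-/- SFN libraries and did not pass the test (adjusted p = 0.0819). The 1 member that fell was Gdf15, a stress-induced secreted factor (-2.01 ± 0.22 log2), which had also fallen with SFN in WT cells (-0.87 ± 0.22).

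Of 21 chaperones and related genes of the endoplasmic reticulum, 7 were higher and 3 lower, beside 18% and 20.8% of all genes, with a median of 0.00 log2. Hsp90b1, the main Hsp90 of that compartment, rose from 601 and 636 to 958 and 989 CPM (0.65 ± 0.08 log2). Canx, the lectin chaperone calnexin (0.72 ± 0.11), Edem1, which directs misfolded glycoproteins to degradation (0.85 ± 0.09), and Dnajb9, a cofactor of BiP (1.04 ± 0.15), rose too. SFN in WT cells moved none of these 4 past the test, with log2 differences between 0.01 and 0.12. The 3 that fell, named after their values were seen, were Creld2 (-1.25 ± 0.25 log2), Selenos (-0.77 ± 0.20), of the degradation complex, and P4hb, protein disulfide isomerase (-0.34 ± 0.09).

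**Figure D2:**
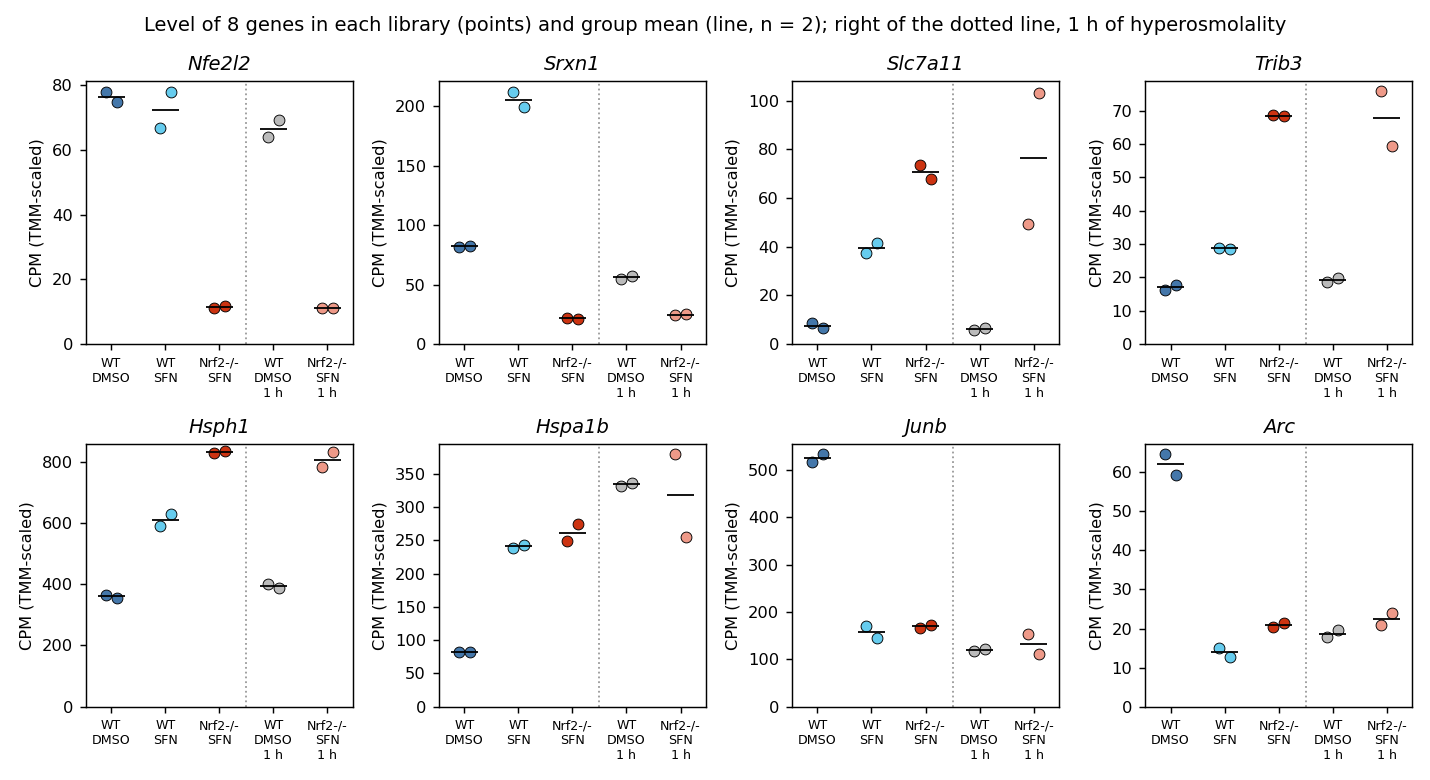
CPM after TMM scaling (vertical axis, linear from 0) of Nfe2l2, Srxn1, Slc7a11, Trib3, Hsph1, Hspa1b, Junb and Arc in each library (points) with the mean of the 2 libraries (line), for WT DMSO, WT SFN and Nrf2-/- SFN cells in isosmotic medium and, right of the dotted line, WT DMSO and Nrf2-/- SFN cells after 1 h in hyperosmotic medium. Srxn1 is low and Slc7a11, Trib3 and Hsph1 are high in all Nrf2-/- libraries, while Junb and Arc are high in the WT DMSO isosmotic libraries and low in the other 8.

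Immediate-early genes, which growth factors and stress switch on within minutes, were mostly lower in both SFN-treated lines in isosmotic medium. Both comparisons used the same 2 WT DMSO libraries. Of 24 tested, 13 fell and 3 rose in Nrf2-/- SFN against WT DMSO cells, beside 20.8% and 18% of all genes (median -0.47 log2). SFN in WT cells gave 17 falls and 0 rises (median -0.87, and 19 and 0 at an unadjusted p under 0.05), beside 1.76% and 1.09% of all genes. Junb, an AP-1 subunit, was 517 and 534 CPM in WT DMSO, 171 and 145 in WT SFN and 166 and 173 in Nrf2-/- SFN libraries. It fell by 1.63 ± 0.14 log2 from WT DMSO, and the 2 SFN-treated lines overlapped (difference 0.10 ± 0.14, adjusted p = 0.624). Arc, a plasticity gene of the same class, was 64.7 and 59.4 CPM in WT DMSO, 15 and 12.8 in WT SFN and 20.5 and 21.4 in Nrf2-/- SFN libraries, with a log2 difference of -1.57 ± 0.11 from WT DMSO. Dusp1, a phosphatase of MAP kinases, was 96.6 and 106 CPM in WT DMSO, 71.3 and 70.9 in WT SFN and 48.6 and 57.8 in Nrf2-/- SFN libraries (-0.93 ± 0.10 log2).

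The WT DMSO libraries in isosmotic medium stood apart for these genes. After 1 h in hyperosmotic medium, Junb was 118 and 123 CPM in WT DMSO and 154 and 112 in Nrf2-/- SFN libraries, and Arc was 17.7 and 19.5 and 21 and 23.9 CPM. The 2 differences, with and without stress, were set against each other in 1 test, which 87 genes passed (0.446%), 66 with a higher difference at 1 h (0.338%) and 21 with a lower one (0.108%), Junb and Arc among them. At 1 h 5 of the 24 were lower and 4 higher in Nrf2-/- SFN cells, beside 15.9% and 15.5% of all genes, and the median was 0.10 log2. SFN against DMSO in WT cells at 1 h and 6 h gave log2 differences of 0.15 and 0.28 for Junb and 0.47 and 0.38 for Arc. For Dusp1 they were 0.17 and 0.07 and for Klf4 -0.09 and 0.10. None of these passed in the fit to 16 libraries. In the fit of the 8 WT libraries Arc passed as raised at both times and Junb at 6 h. Klf4, an epithelial transcription factor, went against the group, at 14.7 and 13.9 CPM in WT DMSO, 6.70 and 6.00 in WT SFN and 34.4 and 37.2 in Nrf2-/- SFN libraries, a rise of 1.32 ± 0.15 log2 from WT DMSO where SFN in WT cells gave -1.17 ± 0.15. Fosb, another AP-1 subunit, was chosen as a gene that differed between the SFN-treated lines without passing against WT DMSO. It was 12.8 and 10.2 CPM in WT DMSO, 1.93 and 2.93 in WT SFN and 14.3 and 12.5 in Nrf2-/- SFN libraries, so that only WT SFN was low.

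Chemokines and NF-kB targets fell as well, with 15 of 22 lower and 1 higher, beside 20.8% and 18% of all genes, and a median of -1.68 log2, or -1.39 with genes at 0 counts set at their bound. With SFN in WT cells 14 fell and 0 rose (15 and 0 at an unadjusted p under 0.05), beside 1.76% and 1.09% of all genes. Ccl2, a monocyte attractant, was 66.6 and 59.0 CPM in WT DMSO and 25.5 and 25.5 in WT SFN libraries, and had 0 counts in all 4 Nrf2-/- libraries, at least 757-fold lower than in WT DMSO. Cxcl5, a neutrophil attractant, was 6.77 and 5.73 CPM in WT DMSO and 2.55 and 2.63 in WT SFN libraries and also at 0 counts in all 4, at least 75.3-fold lower. Cx3cl1, the membrane chemokine fractalkine, was 12.6 and 13.2 CPM in WT DMSO, 16.3 and 14.5 in WT SFN and 1.25 and 1.53 in Nrf2-/- SFN libraries, low in the Nrf2-/- line alone. C3, the central complement component, was 5.72 and 6.21 CPM in WT DMSO, 3.22 and 3.17 in WT SFN and 0.0569 and 0.269 in Nrf2-/- SFN libraries. The 1 gene that rose was Cxcl16 (0.80 ± 0.12 log2), and Nfkbia, the inhibitor that NF-kB itself induces, fell by 1.80 ± 0.14 log2, and with SFN in WT cells by 1.30 ± 0.14. Both were named after their values were seen.

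Interferon-stimulated genes were lower in 15 of 26 and higher in 0 by edgeR (16 and 0 at an unadjusted p under 0.05), with a median of -1.20 log2, beside shares of 20.8% lower and 18% higher over all genes. With SFN in WT cells 2 were higher and 3 lower (2 and 14 at an unadjusted p under 0.05), beside 1.09% and 1.76% of all genes, with a median of -0.60 log2. Ifit3, an antiviral protein, was 8.05 and 9.68 CPM in WT DMSO, 2.44 and 2.78 in WT SFN and 2.36 and 1.24 in Nrf2-/- SFN libraries, with a log2 difference of -2.30 ± 0.27 from WT DMSO. Rsad2, the antiviral enzyme viperin, was 1.98 and 1.64 CPM in WT DMSO, 0.375 and 0.297 in WT SFN and 0.0569 and 0.161 in Nrf2-/- SFN libraries. In contrast, Gbp3, an interferon-induced GTPase, was 28.8 and 30.6 CPM in WT DMSO, rose to 50.1 and 54.2 with SFN in WT cells and was 0.284 and 0.107 in Nrf2-/- SFN libraries. Oas1a, an oligoadenylate synthetase, fell from 8.86 and 8.60 to 1.37 and 1.83 CPM, with 5.98 and 4.24 in WT SFN.

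Zinc and metallothionein genes numbered 6, of which 1 was higher and 2 were lower, beside 18% and 20.8% of all genes. Slc30a1, a zinc exporter induced by the metal sensor Mtf1, was 40.9 and 34.7 CPM in WT DMSO, 9.41 and 9.12 in WT SFN and 22.9 and 21 in Nrf2-/- SFN libraries. The log2 difference from WT DMSO was -0.78 ± 0.18 in Nrf2-/- SFN and -2.03 ± 0.18 in WT SFN cells, and the lines differed (adjusted p = 8.35e-05). Mt1, a metallothionein, was 41.4 and 46.6 CPM in WT DMSO, 13.5 and 9.93 in WT SFN and 34.1 and 56.0 in Nrf2-/- SFN libraries, and higher in Nrf2-/- SFN than in WT SFN cells (1.94 ± 0.55 log2, adjusted p = 0.0195). The other calls were at traces, with Mt2 at 0.691 and 0.730 CPM in WT DMSO and 0 counts in Nrf2-/- SFN libraries, at least 8.56-fold lower, and Mt3 at 0 counts and 0.0569 and 0.349 CPM (2 and 13 counts). Mt3 was the 1 gene called higher, and its call was lost with the replicate block, without either WT DMSO library and without Nrf2-/- replicate 2. Mtf1 itself did not pass the test (0.24 ± 0.14 log2).

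Genes that p53 can induce moved both ways, with 7 of 21 higher and 7 lower, beside 18% and 20.8% of all genes. Btg2, an antiproliferative factor, was 123 and 124 CPM in WT DMSO, 34.8 and 37.1 in WT SFN and 26.3 and 39.3 in Nrf2-/- SFN libraries, and Plk2, a Polo-like kinase, was 1062 and 1016 CPM in WT DMSO, 556 and 562 in WT SFN and 405 and 434 in Nrf2-/- SFN libraries. Both fell with SFN in WT cells and in Nrf2-/- SFN cells, Btg2 by 1.91 ± 0.17 and Plk2 by 1.31 ± 0.09 log2 in the latter. Perp, a desmosomal protein, rose from 54.6 and 58.7 CPM in WT DMSO to 141 and 152 in Nrf2-/- SFN libraries, and Zmat3, an RNA-binding protein, rose from 46.3 and 43.5 to 107 and 112. Neither passed with SFN in WT cells.

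Markers of the line were examined next. In bulk RNA, fewer cells of a kind and less RNA in each cell cannot be told apart. The collecting duct label was borne out only in part in either line, since Aqp2, the vasopressin-regulated water channel, had at most 0.0569 CPM in the 4 libraries and Avpr2 was below the filter. Hoxb7, a gene of the ureteric lineage, was 29.9 and 37.8 CPM in WT DMSO and 34.9 and 34.3 in Nrf2-/- SFN libraries, with no detectable difference (adjusted p = 0.935). Of 27 collecting duct and epithelial genes tested, 6 rose and 14 fell, beside 18% and 20.8% of all genes, with a median of -0.64 log2. With SFN in WT cells 0 rose and 8 fell by edgeR (1 and 14 at an unadjusted p under 0.05), beside 1.09% and 1.76% of all genes, with a median of -0.42 log2. Against WT SFN, 7 of the 27 were higher and 10 lower in Nrf2-/- SFN cells, beside 15.7% and 18.4% of all genes, with a median of -0.15 log2. At 1 h the counts against WT DMSO were also 7 and 10, beside 15.5% and 15.9% of all genes, with a median of 0.00 log2.

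Pax2, a regulator of kidney development, was 119 and 119.7 CPM in WT DMSO, 139 and 146 in WT SFN and 27.5 and 26.2 in Nrf2-/- SFN libraries, with a log2 difference of -2.15 ± 0.09 from WT DMSO (adjusted p = 2.99e-10). Pax8 was 93.0 and 100.2 CPM in WT DMSO and 60.4 and 61.8 in Nrf2-/- SFN libraries (-0.66 ± 0.09 log2), and Gata3 was 5.81 and 6.65 and 0.882 and 0.134 (-3.63 ± 0.50 log2). These 3 regulators of nephric duct identity were thus lower without overlap. Cdh16, the kidney-specific cadherin, fell from 166 and 177 to 20.1 and 21 CPM (-3.06 ± 0.19 log2). Ehf, an epithelial ETS factor, was 15.6 and 14.8 CPM in WT DMSO and had 0 counts in Nrf2-/- SFN libraries, at least 183-fold lower, and Elf3, of the same family, fell by 1.64 ± 0.12 log2.

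Cdh1, E-cadherin, was 227 and 224 CPM in WT DMSO, 138 and 147 in WT SFN and 438 and 438 in Nrf2-/- SFN libraries. Its rise of 0.96 ± 0.09 log2 from WT DMSO stood against a log2 difference of -0.66 ± 0.09 with SFN in WT cells. Epcam, an epithelial adhesion molecule, was 80.8 and 89.8 CPM in WT DMSO and 264 and 304 in Nrf2-/- SFN libraries, a rise of 1.74 ± 0.21 log2, with 50.3 and 47.3 in WT SFN. Keratins of simple epithelia were lower, and Krt8 fell by 0.60 ± 0.10 and Krt18 by 0.64 ± 0.10 log2. SFN in WT cells gave falls as well, and they fell by 0.42 ± 0.10 and 0.56 ± 0.10. At 1 h neither differed between Nrf2-/- SFN and WT DMSO cells past the test (adjusted p = 0.671 and 0.724).

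Mesenchymal genes fell in 7 of 15 tested and rose in 3, beside 20.8% and 18% of all genes, with a median of -0.52 log2. Vim, vimentin, was 934 and 1066 CPM in WT DMSO, 978 and 1054 in WT SFN and 157 and 154 in Nrf2-/- SFN libraries, with a log2 difference of -2.68 ± 0.15 from WT DMSO. Sparc, a matrix glycoprotein, was 245 and 264 CPM in WT DMSO, 309 and 285 in WT SFN and 9.50 and 10.7 in Nrf2-/- SFN libraries, and fell by 4.65 ± 0.11. Zeb1, a repressor of E-cadherin, fell from 17.1 and 15 to 0.796 and 0.430 CPM, and Twist1, a second such factor, went from 6.58 and 6.04 CPM to 0 counts in all 4 Nrf2-/- libraries, at least 76.0-fold lower than in WT DMSO. None of these 4 passed with SFN in WT cells. Col1a1 was low throughout (3.10 and 2.70 CPM in WT DMSO, 1.25 and 1.61 in Nrf2-/- SFN) and Pdgfra was below the filter. Summed over the list, the level was 3435 and 3228 CPM in WT DMSO and 3470.0 and 3321 in Nrf2-/- SFN libraries, most of it from Fn1, fibronectin, which was named after its values were seen and rose from 2023 and 1683 to 3076 and 2937 CPM (0.70 ± 0.11 log2).

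Markers of other cells were scarce. Ptprc and Pecam1, of leukocytes and endothelium, were at most 0.376 CPM in the 4 libraries. Of 8 immune and endothelial genes tested 0 passed edgeR in either direction, beside 38.8% of all genes. The summed level of these 8 was 2.859 and 3.603 CPM in WT DMSO and 3.044 and 3.627 in Nrf2-/- SFN libraries. At an unadjusted p under 0.05 edgeR found 1 of the 8 higher, and DESeq2 called 1 higher. Of 4 intercalated cell genes tested 1 was lower and 0 higher, beside 20.8% and 18% of all genes. It was Car2, a carbonic anhydrase (3.50 and 3.71 CPM against 0 counts, at least 43.5-fold), and Foxi1 and Atp6v1b1 were below the filter. Of 4 proximal tubule and loop genes tested 1 was lower and 0 higher, beside the same shares. It was Lrp2, the endocytic receptor megalin (7.15 and 5.28 CPM against 0.284 and 0.0537), and Umod was below the filter.

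**Figure D3:**
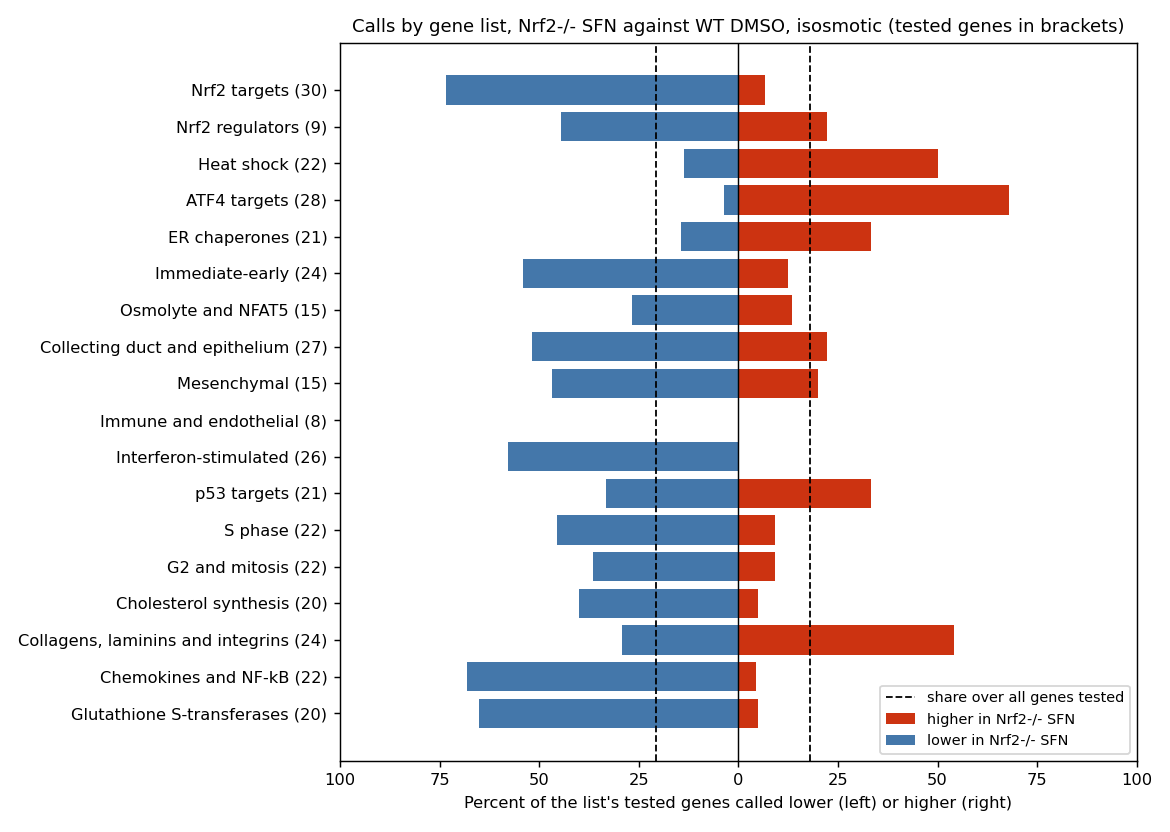
Share of the tested genes of each list with at least 8 tested (number in brackets) that were called lower (blue, to the left) or higher (red, to the right) in Nrf2-/- SFN than in WT DMSO cells at an adjusted p under 0.05 by edgeR. Dashed lines mark the shares over all 19509 genes, 20.8% lower and 18% higher, and ATF4 targets stand out on the right while Nrf2 targets, chemokines and glutathione S-transferases stand out on the left.

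The largest differences were between silence and expression. In the Nrf2-/- SFN libraries 1682 tested genes had 0 counts in both, and 385 of them were called lower. In the WT DMSO libraries, which had higher total counts, 1306 had 0 counts in both, and 146 of them were called higher. Over all genes tested 20.8% were lower and 18% higher. There were 47 genes at 0 counts with a WT DMSO mean of at least 5 CPM, and 34 of these had at most 3 counts in each Nrf2-/- library at 1 h. Conversely, 4 genes had 0 counts in both WT DMSO libraries and a mean of at least 5 CPM in Nrf2-/- SFN libraries, and all 4 were higher at 1 h.

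Col4a1 and Col4a2 led the losses. They encode chains of basement membrane collagen IV and lie head to head on chromosome 8 (11198423 to 11312826 and 11312805 to 11449287, GENCODE M21 on GRCm38), overlapping at their starts. Another chain of collagen IV, Col4a4, named after its values were seen, was higher in Nrf2-/- SFN than in WT DMSO cells (1.09 ± 0.12 log2). Col4a1 was 195 and 154 CPM and Col4a2 115 and 104 CPM in WT DMSO libraries, and both had 0 counts in Nrf2-/- SFN libraries, at least 2104-fold and 1321-fold lower. At 1 h in Nrf2-/- cells Col4a1 again had 0 counts, while Col4a2 was 0.113 and 0.202 CPM. Col5a1, a fibrillar collagen, was 17.6 and 15.7 CPM and 0 counts, at least 201-fold lower, and Mmp14, a membrane-bound collagenase, was 20.2 and 21.1 CPM and 0 counts, at least 249-fold lower. The list of collagens, laminins and integrins did not share this direction, with 13 of 24 higher and 7 lower, beside 18% and 20.8% of all genes, and a median of 0.36 log2, and its members that fell included Itga2, a collagen-binding integrin (29.2 and 22.7 CPM against 1.19 and 1.67).

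Other genes at 0 counts in Nrf2-/- SFN libraries had varied roles. Peg3, an imprinted zinc finger gene, was 107 and 81.8 CPM in WT DMSO libraries, at least 1137-fold higher than in Nrf2-/- SFN, and it was also at 0 in both Nrf2-/- libraries at 1 h. Havcr1, the kidney injury molecule KIM-1, was 34.4 and 36.0 CPM in WT DMSO and 0 in all 4 Nrf2-/- libraries, at least 424-fold lower in isosmotic medium. Slc16a10, an aromatic amino acid transporter (20.8 and 19.0 CPM in WT DMSO), and Trp53i11, a p53-inducible gene (22.7 and 21.6), were at 0 in all 4 as well. Id4, an inhibitor of basic helix-loop-helix factors (22.3 and 19.7 CPM in WT DMSO), Elfn1, a synaptic adhesion protein (22.3 and 20.7), Bend4 (44.5 and 40.3) and the zinc finger gene Zfp518a (21 and 19.5) had 0 counts in isosmotic medium and a few at 1 h, where Zfp518a reached 1.19 and 2.36 CPM. SFN in WT cells left all of these expressed, between 14.8 CPM for Zfp518a and Id4 in the lowest library and 71.4 CPM for Bend4 in the highest.

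Genes gained in the Nrf2-/- line were led by Elavl4, a neuronal RNA-binding protein. It had 0 counts in every WT DMSO and WT SFN library in isosmotic medium and 71.1 and 74.1 CPM in Nrf2-/- SFN libraries, at least 1054-fold higher than in WT DMSO, and 53 and 83.9 CPM at 1 h. Aim2, a cytosolic DNA sensor, was at 0 counts in WT DMSO and 9.33 and 11.8 CPM in Nrf2-/- SFN libraries, at least 153-fold higher. Aox4, an aldehyde oxidase (7.51 and 8.73 CPM, at least 118-fold higher), and Krt6a, a keratin of stratified epithelium (6.80 and 6.10 CPM, at least 93.6-fold higher), were at 0 counts in WT DMSO and WT SFN libraries. Crmp1, a cytoskeletal regulator of neurons, and Mgp, an inhibitor of calcification, rose from 0 counts to 3.93 and 4.08 and 3.81 and 4.08 CPM.

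The others began from traces. Cldn9, a tight junction claudin, was 0 and 0.177 CPM in WT DMSO and 88.9 and 84.1 in Nrf2-/- SFN libraries, a log2 rise of 9.83 ± 0.44. Rhox5, an X-linked homeobox gene of the reproductive tract, went from 0.214 and 0.133 to 65.3 and 69.1 CPM (8.58 ± 0.87 log2). For Dynap (counting ratio 945 with a 95% exact interval from 261), Cd36, a fatty acid receptor (602, from 166), Hdx (477, from 163) and Col17a1, a hemidesmosomal collagen (365, from 101), the WT DMSO libraries held 2 or 3 counts in all, and these intervals cover counting error only. All 12 of these genes were higher in Nrf2-/- SFN than WT DMSO cells at 1 h as well, and none passed the test with SFN in WT cells in isosmotic medium.

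**Figure D4:**
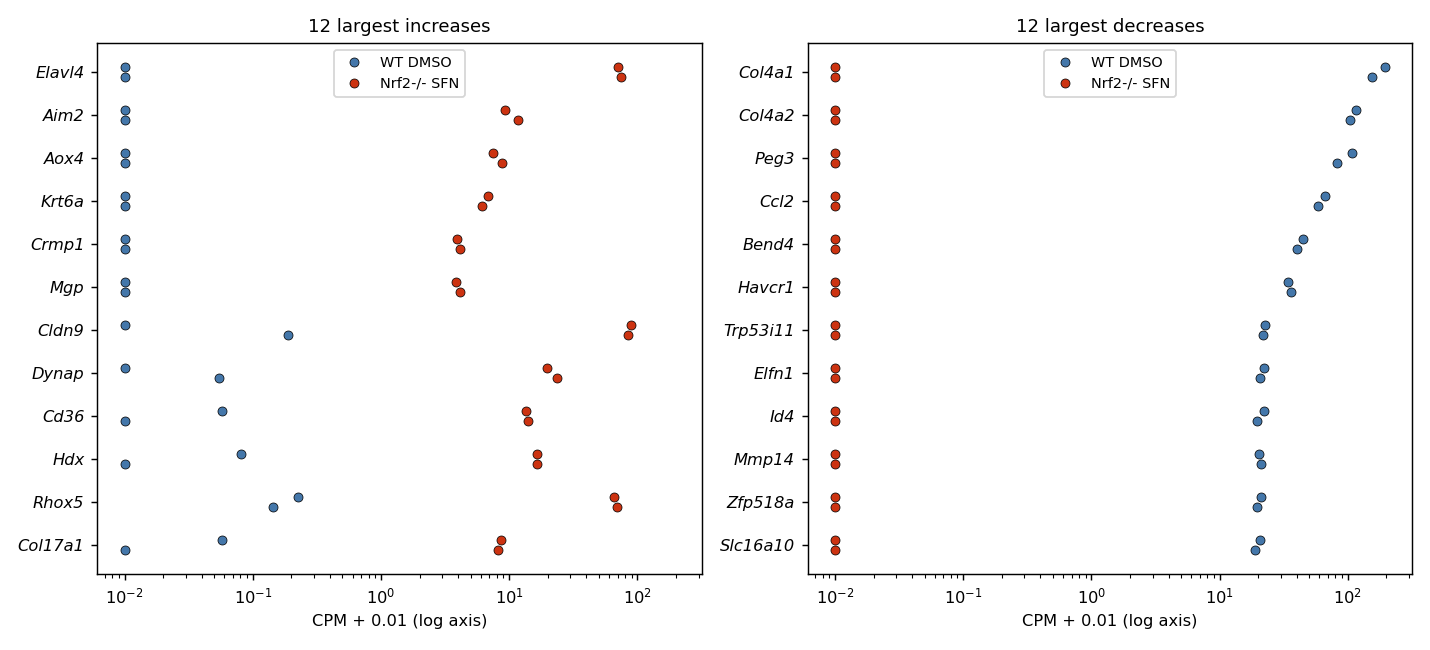
CPM plus 0.01 on a log axis in each WT DMSO (blue) and Nrf2-/- SFN library (red) for the 12 genes with the largest increase and the 12 with the largest decrease (vertical axis). Points at 0.01 are libraries with 0 counts, which is every Nrf2-/- SFN library on the right, and Col4a1 reaches 195 CPM in WT DMSO.

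Growth and metabolism genes shifted by smaller steps. Of 22 S phase genes, 10 were lower and 2 higher (median -0.39 log2), and of 22 genes of G2 and mitosis 8 were lower and 2 higher (median -0.30), beside 20.8% and 18% of all genes. Calls were more frequent among the 11961 genes with a mean of at least 50 counts and 1 position, at 3290 lower and 3026 higher. Mcm3, of the replicative helicase, went from 481 and 496 CPM in WT DMSO to 305 and 289.9 in Nrf2-/- SFN libraries (-0.72 ± 0.08 log2), and Tpx2, a spindle assembly factor, from 257 and 266 to 174 and 174 (-0.59 ± 0.08). Pola1, the catalytic subunit of DNA polymerase alpha and X-linked, went the other way, from 56.8 and 57.1 to 166 and 158 CPM (1.51 ± 0.19). Cdc6, Tyms, Bub1b, Birc5 and Cdc20 fell by between 0.59 and 0.82 log2. With SFN in WT cells edgeR called 0 of either list, beside 2.84% of all genes. At an unadjusted p under 0.05 there were 2 lower S phase genes and 4 higher mitotic genes. Of 20 cholesterol synthesis genes 8 were lower, 1 was higher and 11 did not pass, beside 20.8% lower and 18% higher over all genes, with a median of -0.29 log2. Those that fell included Srebf2, the regulator of the pathway (267 and 246 CPM against 114 and 104, -1.23 ± 0.09 log2), Hmgcs1 (-0.87 ± 0.11) and Cyp51 (-0.84 ± 0.10).

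Osmolyte genes, which medullary cells use against high salt, were called higher in 2 of 15 cases and lower in 4, near the shares of 18% and 20.8% over all genes. Slc5a3, the myo-inositol transporter, rose from 49.4 and 46.7 CPM in WT DMSO to 181 and 186 in Nrf2-/- SFN libraries (1.93 ± 0.24 log2, adjusted p = 2.28e-05), with 61.8 and 82.1 in WT SFN. Akr1b3, aldose reductase, which makes sorbitol (-0.73 ± 0.09 log2), and Slc2a1, a glucose transporter (-0.84 ± 0.09), fell. None of these 3 passed with SFN in WT cells.

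Position in the genome, examined after the data were seen, separated 1 chromosome from the rest. Among genes with a mean of at least 50 counts and 1 position in GENCODE M21, the 385 on chromosome X had a median log2 difference of 0.89 (1.86-fold) between Nrf2-/- SFN and WT DMSO cells, 341 (88.6%) were positive, 276 were called higher and 16 lower. Of the 11568 autosomal genes by the same limits, 46.5% were positive, 2747 were called higher and 3273 lower. Their median was -0.06, and single autosomes lay between -0.28 (chromosome 2) and 0.28 (chromosome 16). In 9 bins of 20 Mb along X the medians ran from 0.70 to 1.20, above those of the 129 other bins with at least 20 genes, which ran from -0.65 to 0.62. The median of X was 0.88 at 1 h, 0.89 against WT SFN and 0.04 for SFN in WT cells, and 0.95 under RLE scaling. Genes of the Y chromosome were counted in both lines, and Ddx3y, named after its values were seen, was 96.3 and 83.1 CPM in WT DMSO and 89.1 and 103 in Nrf2-/- SFN libraries, a difference that did not pass the test (adjusted p = 0.602).

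**Figure D5:**
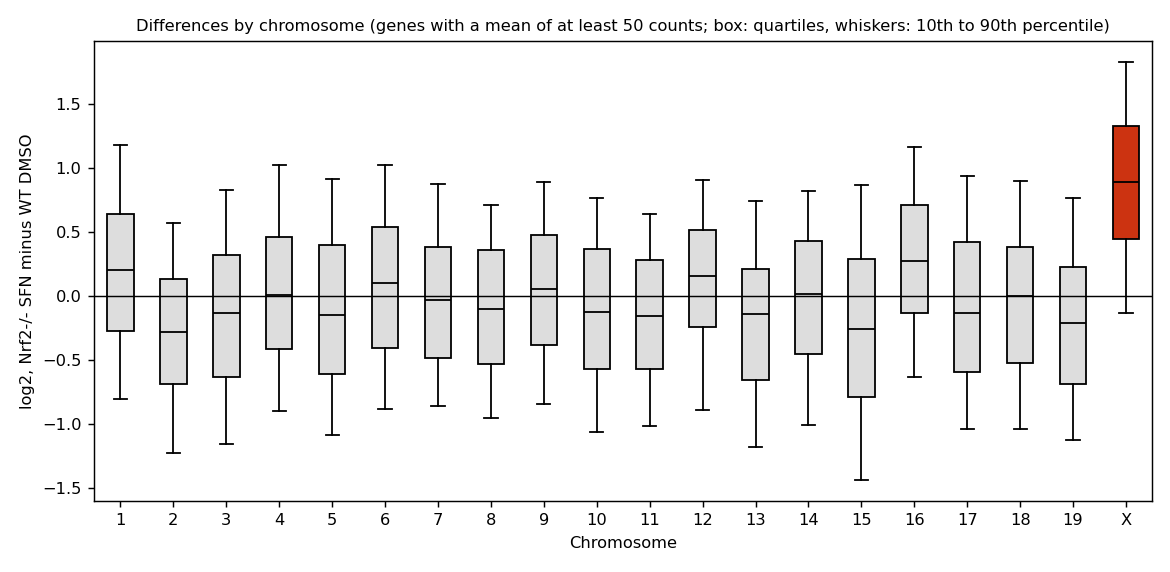
Log2 difference between Nrf2-/- SFN and WT DMSO cells (vertical axis) for genes with a mean of at least 50 counts, by chromosome (horizontal axis); boxes show quartiles with the median as a line, and whiskers the 10th and 90th percentiles. Chromosome X (red) has a median of 0.89, and the autosomal medians lie between -0.28 and 0.28.

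Genes that differed between the SFN-treated lines without differing from WT DMSO completed the comparison. Beside Fosb and Mt1, the genes higher in Nrf2-/- SFN than in WT SFN cells by the naming rule were Bex1 (2.13 ± 0.35 log2), Tgfb1i1 (2.27 ± 0.46), Galm (2.26 ± 0.50) and Cbr2 (1.96 ± 0.52). Bex1, an X-linked gene, was 44.3 and 51.3 CPM in WT DMSO, 23.9 and 15.6 in WT SFN and 89.9 and 83.2 in Nrf2-/- SFN libraries, and its difference from WT DMSO lay near the threshold (adjusted p = 0.0624). Those lower in Nrf2-/- SFN than in WT SFN cells were Mir692-2, Rhbdl1, Pgam2, Ucn2, Msx1 and Cacnb1, all at or below 6.44 CPM in these 6 libraries. Msx1, a homeobox gene, was 0.834 and 0.685 CPM in WT DMSO, 2.95 and 1.70 in WT SFN and 0.711 and 0.698 in Nrf2-/- SFN libraries, so that SFN raised it in WT cells (1.60 ± 0.36 log2, adjusted p = 0.0281) and Nrf2-/- SFN cells stood near the untreated level.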

How the data were processed

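RNA-seq of mIMCD3 cells was analysed from the raw counts per gene symbol that the authors deposited, 1 library at a time. The methods name Hisat2 and the submitters' processing notes name Bowtie2 for alignment to mm10, and both name SAMtools and featureCounts. Versions, annotation and strand setting are not given in the sources used here, so paralogs and overlapping genes may share reads. Groups came from the sample labels. Lines without a gene name (2 and 3 in 2 files) were left out.

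Total counts were 34484296 to 50774875 per library. Of the values between 1 and 10, 58% to 68.5% were even, which leaves it uncertain whether each is an independent fragment, and counting intervals and floors cover counting error only. The main test was edgeR 4.0.16 (R 4.3.3), quasi-likelihood F-test with TMM and filterByExpr, fitted to all 16 libraries with 1 coefficient per condition, since 2 libraries a group give a poor estimate of spread on their own. Calls are at a Benjamini-Hochberg adjusted p under 0.05. SE is the log2 difference divided by the square root of F. A fold against 0 counts is a bound set by 3 counts per library. Median log2 differences of lists were also computed with such genes at their bound.

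Members and the 21 gene lists were chosen with earlier results of these data known. Named were Nfe2l2, Keap1, up to 4 genes per list with the smallest p, defining markers, the 12 genes with the largest change in each direction, up to 8 each way among the SFN-raised genes and 6 each way between the SFN-treated lines, the last 3 kinds with a mean of at least 50 counts and no overlap of libraries, without predicted or pseudogene symbols. Positions came from GENCODE M21 by symbol for 19048 genes (97.6%), and promoters from RefSeq. On simulated counts for this comparison (18870 genes), 76 of 100 genes changed 2-fold and 92 of 100 changed 4-fold were called, with 6 false calls. The changed genes were drawn from those above a limit on counts, and no other gene differed between the 2 groups. The simulated spread followed its trend with expression. In the data 38.8% of genes passed, so recovery there may differ. Alternatives were DESeq2 1.42.0, RLE size factors, other filters, fewer libraries in the fit, the replicate number as a block, a 2-fold limit and leaving out each library. Results of a few named genes are not reported here.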

Additional observations from a re-analysis of the deposited data

Results flagged for a closer look

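For 14 of the named genes the difference between Nrf2-/- SFN and WT DMSO cells was not the same in isosmotic medium and after 1 h in hyperosmotic medium, by edgeR's test of the difference between the 2 differences (adjusted p under 0.05 over 19509 genes, of which 87 passed, 66 higher at 1 h and 21 lower). Values are the log2 difference at 1 h minus that in isosmotic medium, and the Nrf2-/- libraries at 1 h are the ones that vary most.

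In 6 genes the isosmotic difference was a fall that was smaller, absent or turned round at 1 h. The change was 1.78 for Junb (from -1.63 to 0.14, adjusted p = 5.71e-04), 1.84 for Arc (from -1.57 to 0.27, adjusted p = 1.05e-04) and 1.79 for Btg2 (from -1.91 to -0.12, adjusted p = 0.00251). It was 2.14 for Slc30a1 (from -0.78 to 1.35, adjusted p = 0.00108), 0.88 for Mafk (from -1.10 to -0.22) and 0.70 for Krt18 (from -0.64 to 0.06). The WT DMSO level itself moved between the 2 media, for Junb from 517 and 534 to 118 and 123 CPM, for Btg2 from 123 and 124 to 15.2 and 19.5 and for Slc30a1 from 40.9 and 34.7 to 8.98 and 6.57.

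Hspa1b was higher in Nrf2-/- SFN cells in isosmotic medium alone, with a change of -1.75 (from 1.68 to -0.07, adjusted p = 8.05e-04). Its WT DMSO level was 81.9 and 81.7 CPM in isosmotic medium and 332 and 336 at 1 h. Srxn1 and C3 fell in both media and less so at 1 h, with changes of 0.72 (from -1.92 to -1.20) and 3.10 (from -5.15 to -2.05).

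In the other 5, all at 0 counts in the isosmotic Nrf2-/- SFN libraries, the fitted change depends on the prior count and is no measure of size: 5.45 for Col4a2, 6.61 for Bend4, 6.54 for Mmp14, 9.13 for Zfp518a and 6.49 for Nqo1. Their levels in Nrf2-/- cells at 1 h were 0.113 and 0.202 CPM (Col4a2), 0.198 and 0.461 (Bend4), 0.255 and 0.346 (Mmp14), 1.19 and 2.36 (Zfp518a) and 0.255 and 0.115 (Nqo1), all far below WT DMSO at 1 h.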

How the results depend on the processing

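The numbers of genes higher (3514) and lower (4049) stayed within 1.5 times of these values under DESeq2, RLE size factors, both other filters and fits of the 4, 6 or 14 libraries, while a 2-fold limit left 1513 and 1913. None of the genes called was called in the opposite direction under any of these. With RLE size factors 3825 were higher and 3700 lower, and the median gene shifted by 0.06 log2. Leaving out 1 library at a time gave 2225 to 2888 higher and 2799 to 3329 lower genes, and the lowest count of higher genes came without WT DMSO replicate 2 (2225, over 1.5 times fewer); a lone library is then assumed to vary like the other groups. Nrf2 targets called numbered 24, between 18 and 22 without 1 library, and 12 at the 2-fold limit. Of the genes SFN raised at 1 h or 6 h, the 5 higher ones became 3 with no filter on low counts and 2 at the 2-fold limit, and 2 to 5 without 1 library (2 without WT DMSO replicate 2, 3 without Nrf2-/- replicate 1 or 2), since Ampd3, Lrp8 and, in 1 case, Dgcr8 lost their call. With the list from the 8 WT libraries, added later, they were 92, and the genes lowered by SFN and lower here were 73, where the main list was empty. The cause was not tested for the changes made by other fits. Among the named genes no direction was reversed. The replicate numbers did not pair the samples (correlation of deviations 0.0139, 2 pairs); with a replicate block 3381 genes were higher and 3924 lower, and 1 named gene, Mt3, lost its call. At 2 libraries a group, differences under 2-fold and differences in weakly expressed genes may have been missed, and neither was simulated.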
